A study of Medicago truncatula with 6 samples.

Results

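The genes described here encode LysM receptor-like kinases of Medicago truncatula together with the symbiotic receptor kinase DMI2 and the E3 ubiquitin ligase PUB1. They were taken by identifier, and 8 of the 50897 transcripts in the count files were chosen: NFP (Medtr5g019040), LYK3 (Medtr5g086130), LYR3 (Medtr5g019050), LYR1 (Medtr8g078300), LYK9 (Medtr3g080050), LYK10 (Medtr5g033490), DMI2 (Medtr5g030920) and PUB1 (Medtr5g083030). Identifiers are those of the Mt4.0v1 gene models, and coordinates are not used here. The libraries were made from polyA RNA of root hairs of 5-day-old wild type A17 plants, grown in vitro on Fahraeus medium and treated with water (control) or with Nod factors (NF), the latter lasting 4 h in one treatment and 20 h in the other. NF 4 h and NF 20 h have 2 libraries each, from independent biological repeats of pooled plants, and the control has 1 library (replicate 2), whose label carries 4 h. Control replicate 1 is not analysed here. In the comparison of NF 20 h with this control, treatment and time after treatment cannot be told apart.

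Nod factors are lipochitooligosaccharides that rhizobia release, and legume roots perceive them through receptor-like kinases with extracellular LysM domains. In M. truncatula, NFP, whose kinase domain is inactive, and LYK3, whose kinase is active, are required for rhizobial entry. DMI2, a leucine-rich repeat receptor kinase known as SYMRK in Lotus japonicus, acts in the common symbiosis pathway shared with mycorrhiza. Other LysM proteins bind chitin oligomers or rhizobial exopolysaccharide, and PUB1 is a U-box ubiquitin ligase that interacts with LYK3 and DMI2 and restrains nodulation.

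The libraries held between 39199411 and 47302574 counted read pairs. All 8 markers fixed for root hairs were above 1 CPM (pairs per 1000000 counted pairs of the library) in every library, from 9.02 to 4145 CPM. A mean of at least 1 CPM was reached by 17061 genes, so this limit is not specific to root hair genes. Of the 8 receptor-complex genes, 7 passed the filter on low counts and were tested among 22091 genes. LYR1 was not tested, since it had 0 pairs in all 5 libraries. In bulk samples of root hairs, a change in the share of cells that express a gene and a change in RNA per cell cannot be told apart.

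Against the control, LYK10 and PUB1 rose in both NF treatments, and none of the 7 tested genes fell. LYK10, the orthologue of the Lotus japonicus exopolysaccharide receptor EPR3, went from 0.307 CPM in the control to a mean of 24.5 ± 9.82 CPM (SD, n = 2) at 4 h and 32.7 ± 6.99 CPM (SD, n = 2) at 20 h. PUB1 went from 40.6 CPM to 157 ± 31.2 CPM (SD, n = 2) at 4 h and 129 ± 2.57 CPM (SD, n = 2) at 20 h. The receptors NFP and LYK3 did not pass the test in any comparison, nor did LYR3, LYK9 and DMI2. The 2 genes that rose at 4 h stand beside 0.684% of all tested genes called in that comparison (0.525% higher), and the 2 that rose at 20 h beside 1.47% (1.1% higher). A list of responding genes that the study made from the same experiment holds 2 of the 8 genes, so these counts are not independent evidence. Both comparisons use the same control library, so their directions are not independent of each other.

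**Figure D1:**
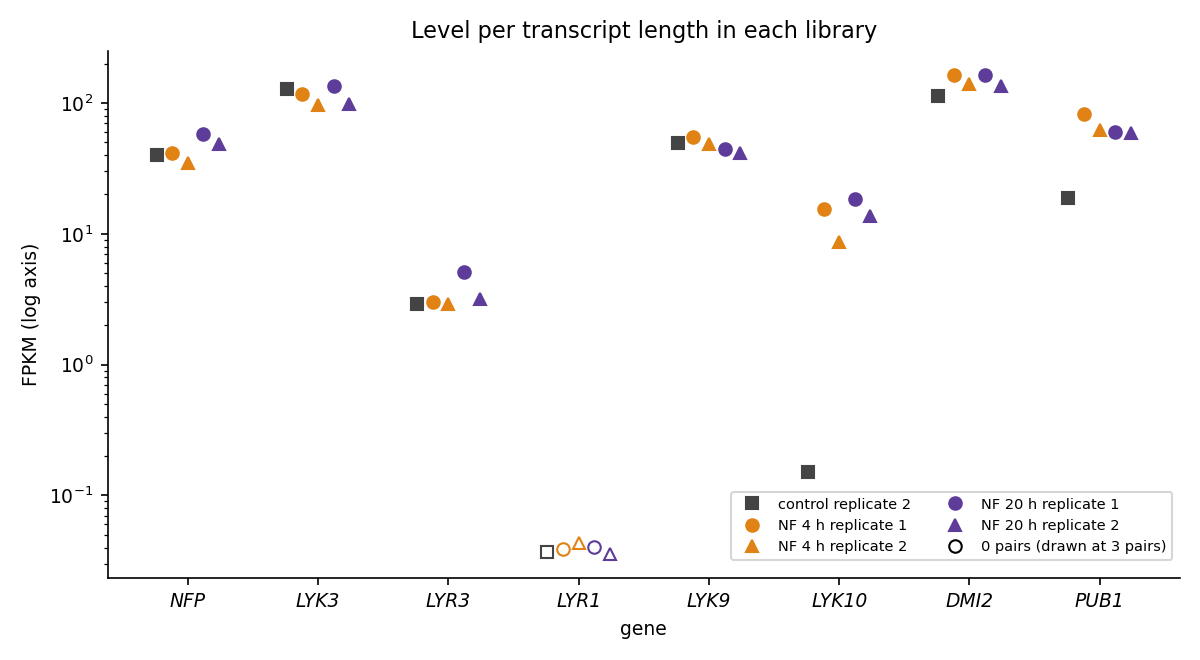
Level per transcript length of the 8 genes in each of the 5 libraries, as FPKM (CPM per kilobase of transcript) on a log axis. Each point is 1 library, and LYR1, with 0 pairs in every library, is drawn with open symbols at the level that 3 pairs would give. LYK10 lies at 0.151 FPKM in the control and between 8.65 and 18.5 FPKM in the 4 NF libraries, and PUB1 at 18.8 FPKM against 58.6 to 82.6 FPKM.

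NFP, a LysM receptor-like kinase without which Nod factors are not perceived, had 88.8 CPM in the control, 91.9 and 76.3 CPM in the NF 4 h libraries (replicates 1 and 2 in this order throughout) and 128 and 108 CPM in the NF 20 h libraries. Control and NF 4 h overlapped, while both NF 20 h libraries lay above all others. Against the control, NF 4 h gave a log2 fold change of −0.08 (SE 0.19) and NF 20 h of 0.41 (SE 0.20), with adjusted p of 0.981 and 0.541 (edgeR quasi-likelihood test, Benjamini-Hochberg adjustment). Between NF 20 h and NF 4 h it was 0.49 (SE 0.16), with an adjusted p of 0.345.

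LYK3, the active LysM kinase that partners NFP and serves as entry receptor in root hairs, had 237 CPM in the control, 218 and 180 CPM at 4 h and 253 and 182 CPM at 20 h. The control lay above both NF 4 h libraries and inside the range of the NF 20 h libraries. As with the control, the lower NF libraries were replicate 2, at 0.758 times the control at 4 h and 0.769 times at 20 h. Replicate 1 stood at 0.918 and 1.07 times. Log2 fold changes against the control, −0.26 (SE 0.25) for NF 4 h and −0.12 (SE 0.25) for NF 20 h, had edgeR adjusted p of 0.923 and 0.926. Reads that matched several transcripts equally well were removed before counting, so the level of LYK3 is uncertain where it is near-identical to the LysM receptor genes with neighbouring identifiers. The share of its single reads that were counted in pairs was 88.6% in NF 20 h replicate 2 and 91.5% to 94.2% in the other libraries, beside 92.0% to 92.4% over all genes.

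LYR3, a LysM protein that binds lipochitooligosaccharides with high affinity and interacts with LYK3, was low in every library. It had 6.89 CPM in the control, 7.06 and 6.84 CPM at 4 h and 11.99 and 7.42 CPM at 20 h, from 268 to 503 pairs. The first 3 of these libraries were close together, and the NF 20 h replicates were further apart from each other than the lower of them was from the control. The log2 fold change of 0.49 (SE 0.32) at 20 h had an edgeR adjusted p of 0.699, and that of 0.01 (SE 0.32) at 4 h an adjusted p of 0.999.

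LYR1, a homologue of NFP known from work on mycorrhiza, had 0 pairs and 0 single reads in all 5 libraries. The floor set for a count of 0 is 3 pairs, which is 0.0634 to 0.0765 CPM at these depths. The upper ends of the exact Poisson 95% intervals are higher, at 0.0780 to 0.0941 CPM. LYR1 is 1 of 20816 transcripts, or 40.9% of those listed, at 0 pairs in all 5 libraries.

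LYK9, the orthologue of the chitin receptor kinase CERK1 of Arabidopsis, had 113 CPM in the control, 125 and 111 CPM at 4 h and 102 and 94.8 CPM at 20 h. The control lay between the NF 4 h libraries and above both NF 20 h libraries. Its log2 fold changes, 0.07 (SE 0.16) and −0.19 (SE 0.16), had edgeR adjusted p of 0.98 and 0.774.

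LYK10 showed the widest range of the 7 detected genes. Of its pairs, 14 were in the control, 1365 and 690 in the NF 4 h libraries and 1578 and 1311 in the NF 20 h libraries. In CPM these were 0.307 in the control (exact Poisson 95% interval 0.168 to 0.515, counting error only), 31.5 and 17.6 at 4 h and 37.6 and 27.7 at 20 h. Every NF library was thus far above the control, and the ranges of the NF treatments overlapped.

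The mean level of LYK10 was 79.9 times that of the control at 4 h and 106 times at 20 h, and the counting error of the 14 control pairs alone gives 47.6 to 146 and 63.4 to 195. The fit gave log2 fold changes of 6.31 (SE 0.60) for NF 4 h and 6.72 (SE 0.61) for NF 20 h, with edgeR adjusted p of 0.0295 and 0.0226. By fold, LYK10 ranked 55 among the 22091 tested genes at 4 h and 70 at 20 h. NF 20 h against NF 4 h gave 0.41 (SE 0.31), with an adjusted p of 0.799.

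Primers for RT-qPCR of LYK10 are given in the study. They are shown because LYK10 had the largest fold change of the receptor-complex genes. They are written 5′ to 3′, and no letter is set in capitals since no part of them is compared.
LYK10 forward primer: agaaggtgtctacaagatgg
LYK10 reverse primer: cactgccacaacgatctc

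DMI2, the leucine-rich repeat receptor kinase of the common symbiosis pathway, had 408 CPM in the control, 596 and 503 CPM at 4 h and 595 and 487 CPM at 20 h. All 4 NF libraries lay above the control, and the ranges of the NF treatments overlapped with each other. Like the control, the lower NF libraries were replicate 2, at 1.23 times the control at 4 h and 1.19 times at 20 h. Replicate 1 stood at 1.46 times at both times. Neither difference from the control passed the test, with a log2 fold change of 0.43 (SE 0.22) for NF 4 h and 0.41 (SE 0.22) for NF 20 h and edgeR adjusted p of 0.699 and 0.601.

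PUB1, the ubiquitin ligase that interacts with LYK3 and DMI2, had 40.6 CPM in the control, 179 and 135 CPM at 4 h and 131 and 127 CPM at 20 h. The NF libraries stood at 3.13 to 4.404 times the control, and both NF 20 h libraries were below both NF 4 h libraries. These correspond to a fitted log2 fold change of 1.95 (SE 0.23) for NF 4 h and 1.66 (SE 0.22) for NF 20 h, with edgeR adjusted p of 0.0404 and 0.0396. By fold, PUB1 ranked 404 at 4 h and 610 at 20 h among the tested genes. NF 20 h against NF 4 h gave −0.28 (SE 0.17), with an adjusted p of 0.704.

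**Figure D2:**
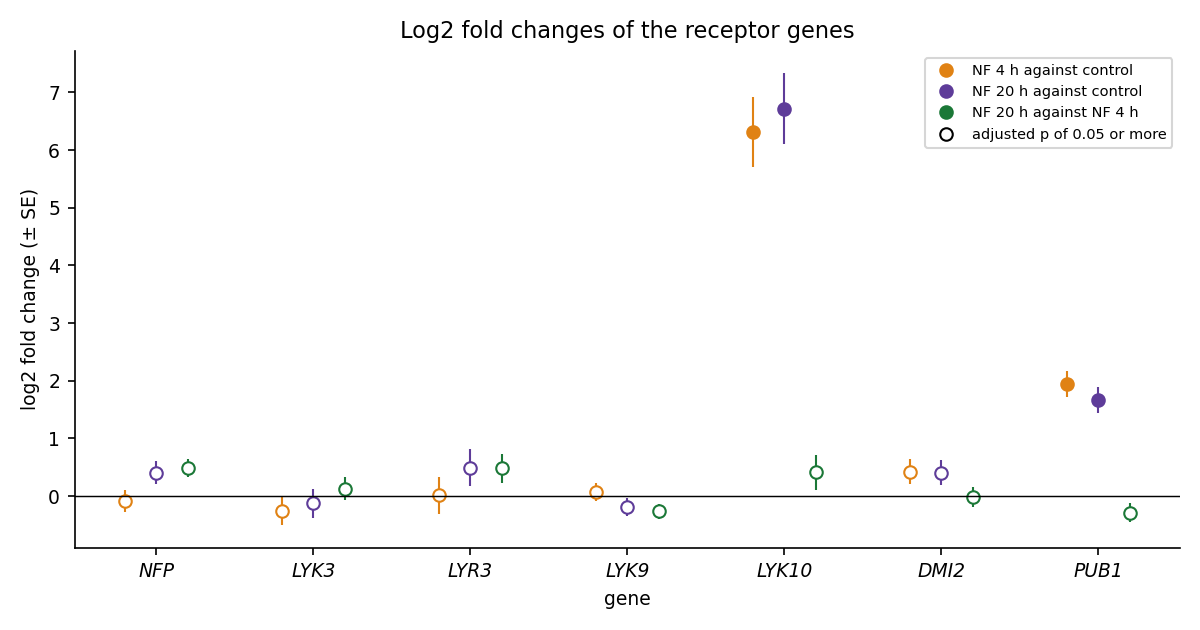
Log2 fold change of the 7 tested genes in the 3 comparisons, with bars of 1 standard error (SE, from the edgeR quasi-likelihood fit). Filled points have a Benjamini-Hochberg adjusted p under 0.05 and open points do not. LYK10 (6.31 and 6.72) and PUB1 (1.95 and 1.66) are the filled points against the control, and no point is filled for NF 20 h against NF 4 h.

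Over the 7 tested genes, the median log2 fold change was 0.07 at 4 h and 0.41 at 20 h, beside −0.03 and −0.00 over all tested genes. The 8 root hair markers had medians of 0.21 and 0.39, with all 8 above 0 and 0 called in both comparisons. At 4 h, 3 genes (LYK10, DMI2 and PUB1) lay above the control in both libraries and 1 (LYK3) below, while of all tested genes 29.9% lay above the control without overlap and 41.1% below. At 20 h, 5 lay above (NFP, LYR3, LYK10, DMI2 and PUB1) and 1 (LYK9) below, while of all tested genes 33.6% lay above and 34.5% below. The 4 of 7 genes at 4 h and 6 of 7 at 20 h that did not overlap the control are read against these shares of the background.

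Between NF 20 h and NF 4 h, 0 of the 7 genes were called by the edgeR quasi-likelihood test, as against 0.0498% of all tested genes. DESeq2 and the edgeR exact test also called 0, and of the alternatives run only the fit with the replicate number as a block called any, namely NFP. Without the block, 1 gene, NFP, had an unadjusted p under 0.05 in the edgeR quasi-likelihood test, as did 10.7% of all tested genes. The log2 fold changes of the 7 genes lay between −0.28 (PUB1) and 0.49 (NFP), with 0.48 (SE 0.26) for LYR3, 0.13 (SE 0.20) for LYK3, −0.02 (SE 0.17) for DMI2 and −0.26 (SE 0.13) for LYK9. NFP and LYR3 were higher in both NF 20 h libraries than in both NF 4 h libraries, LYK9 and PUB1 were lower, and of all tested genes 22.1% were higher without overlap and 16.7% lower. All 7 detected genes were higher in replicate 1 than in replicate 2 in both NF treatments, by 1.03 to 1.79 times, as were 32.4% of all tested genes. The control is replicate 2, so comparisons with it set libraries of both replicates against replicate 2 alone.

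The order of the genes by level per transcript length changed between the control and the NF libraries. In the control, LYK3 was first with 127 FPKM, followed by DMI2 (113 FPKM), LYK9 (49.4 FPKM), NFP (40.2 FPKM), PUB1 (18.8 FPKM), LYR3 (2.93 FPKM) and LYK10 (0.151 FPKM). In NF 4 h, the mean levels put DMI2 first, then LYK3, PUB1, LYK9, NFP, LYK10 and LYR3. NF 20 h gave the same order except that NFP stood before LYK9. Neighbours in this order did not overlap between the 2 libraries of NF 4 h, and at 20 h DMI2 (135 to 164 FPKM) and LYK3 (97.8 to 136 FPKM) were the neighbours that did. The control, with 1 library, gives no spread for its order. Over all 5 libraries, the ranges overlapped for 5 of the 28 pairs of genes, and in each of these the order turned between treatments. PUB1 was below NFP and LYK9 in the control and above both in every NF library, LYK10 was below LYR3 in the control and above it in every NF library, and DMI2 was below LYK3 in the control and above it in every NF library. NFP was below LYK9 in the control and at 4 h and above it in both NF 20 h libraries. In the control, LYK3 made up 36.2% and DMI2 32.1% of the summed FPKM of the 8 genes.

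Ratios between the genes within a library do not depend on the library total. LYK3 to NFP, the receptor pair, was 3.17 in the control, 2.81 and 2.79 at 4 h and 2.35 and 2.00 at 20 h, as ratios of FPKM. DMI2 to NFP was 2.81 in the control, 3.96 and 4.02 at 4 h and 2.84 and 2.76 at 20 h. Hence the NF 4 h libraries differed by little from each other in both ratios and stood apart from the NF 20 h libraries, while the DMI2 to NFP ratio of the control lay within the NF 20 h range. PUB1 to LYK3 was 0.147 in the control and between 0.443 and 0.708 in the 4 NF libraries. These ratios are descriptions, with no test.

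**Figure D3:**
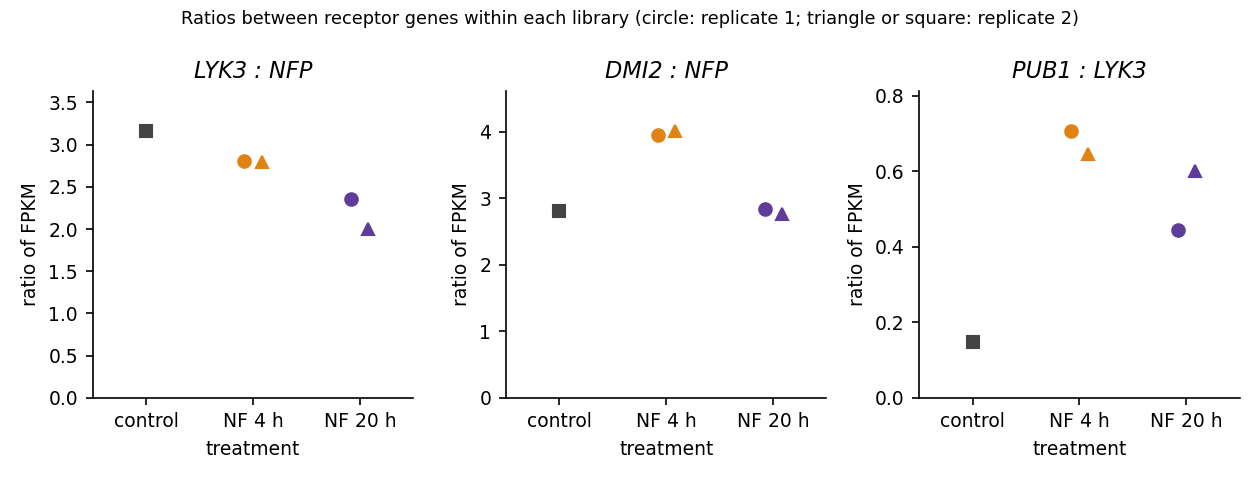
Ratios of FPKM between genes of the receptor complex in each library, by treatment, on linear axes that start at 0. Each point is 1 library, with circles for replicate 1 and squares (control) or triangles (NF) for replicate 2. LYK3 to NFP goes from 3.17 in the control to 2.35 and 2.00 at 20 h, DMI2 to NFP is highest at 4 h (3.96 and 4.02), and PUB1 to LYK3 is lowest in the control (0.147).

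Among 10 other genes annotated as LysM receptors in the study, 1 was called higher at 4 h and at 20 h. Of all tested genes, 0.525% and 1.1% were. None of the 10 was called lower, and none was called between the NF treatments by the edgeR test. The study's list of responding genes, made from the same experiment, holds 8 of these 10. Neither their directions nor the number of them that pass a limit are therefore independent evidence. At an unadjusted p under 0.05 there were 7, 8 and 3 of the 10 in these comparisons, beside 9.28%, 11.8% and 10.7% of all tested genes. The gene called was Medtr4g058570, annotated as a LysM-domain receptor-like kinase. It had 0.0439 CPM (2 pairs) in the control, 3.94 and 3.16 CPM at 4 h and 3.53 and 2.43 CPM at 20 h. It was low in all libraries, and every NF library lay above the control. The fitted log2 fold changes were 6.25 (SE 0.61) for NF 4 h and 5.99 (SE 0.61) for NF 20 h, with edgeR adjusted p of 0.0297 and 0.0258, and its mean level was 81.0 times (22.4 to 669) and 67.9 times (18.8 to 561) that of the control, with the intervals from the counting error of the 2 control pairs.

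The lowest log2 fold change of the 10 was that of Medtr5g086310, annotated as a putative LysM receptor kinase K1B, with −1.08 at 4 h (adjusted p = 0.284) and −1.004 at 20 h (adjusted p = 0.235, edgeR). It had 12.5 CPM in the control and 4.95 to 7.53 CPM in the 4 NF libraries. The median over the 10 genes was −0.33 at 4 h and −0.36 at 20 h, beside −0.03 and −0.00 over all tested genes. Values below 0 were found for 6 of 10 in each comparison, near the 54.6% and 50% of all tested genes. These lay below the control in both libraries, while 3 of the 10 lay above it at 4 h and 4 at 20 h. Of all tested genes, 41.1% and 34.5% lay below and 29.9% and 33.6% above. LYR6 (20 pairs in the control) and Medtr5g086090 (65 pairs) were above at both times and were not called. The log2 fold changes of LYR6 were 3.03 (SE 0.45) at 4 h and 2.31 (SE 0.44) at 20 h. For Medtr5g086090 they were 1.69 (SE 0.42) and 2.64 (SE 0.44).

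**Figure D4:**
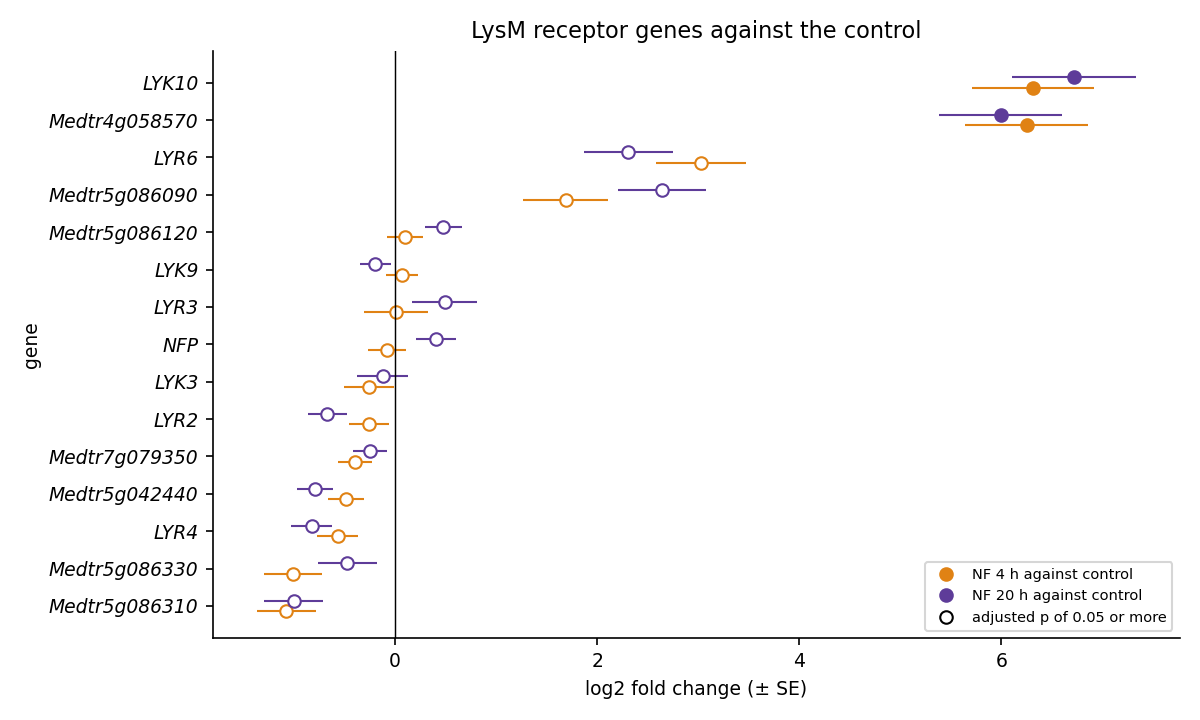
Log2 fold change against the control of the LysM receptor genes tested, LYK10, LYK9, LYR3, NFP and LYK3 together with the 10 others, with bars of 1 standard error. Filled points have an edgeR adjusted p under 0.05. LYK10 and Medtr4g058570 have the 4 filled points, between 5.99 and 6.72, and Medtr5g086310 has the lowest values, −1.08 and −1.004.

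Of 12 genes for signalling downstream of the receptors and for early infection, 3 rose at 4 h and 6 at 20 h, and 0 fell by the edgeR test, where 0.525% and 1.1% of all tested genes rose. The same list of responding genes holds 7 of the 12, so the number of them that pass a limit is not independent evidence either. NSP1, a GRAS transcription factor of nodulation signalling, had 6.78 CPM in the control, 62.8 and 48.7 CPM at 4 h and 42.6 and 39.9 CPM at 20 h (log2 fold changes 3.04 and 2.61, adjusted p 0.0233 and 0.0217). NIN, the transcription factor required for infection and nodule initiation, had 4.34 CPM in the control, 27.9 and 24.8 CPM at 4 h and 46.3 and 40.8 CPM at 20 h (2.60 and 3.33, adjusted p 0.0233 and 0.0159). The third gene called in both was Medtr3g106430, annotated as an SPFH/band 7/PHB domain membrane-associated protein (2.54 and 2.11, adjusted p 0.0377 and 0.0396).

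At 20 h the genes called were joined by NSP2, the GRAS partner of NSP1 (log2 fold change 1.29, adjusted p 0.0485), ERN1, an AP2/ERF transcription factor (1.61, adjusted p 0.0226), and ENOD11, an early nodulin used as a reporter of Nod factor signalling (10.07, adjusted p 0.0268). At 4 h, ERN1 already stood at 2.03 and 1.97 times the control without being called (log2 fold change 1.00, SE 0.15). NSP2 had 0.01 (SE 0.18) at 4 h. ENOD11 had 0.0439 CPM (2 pairs) in the control, 8.05 and 2.88 CPM at 4 h and 50.6 and 50.2 CPM at 20 h. Its 4 h value of 6.88, between replicates 2.79 times apart, had an adjusted p of 0.0858. The lowest log2 fold change, −0.47 at 4 h and −0.25 at 20 h, was that of Medtr8g097320, which had at most 14 pairs in any library. The median over the 12 genes was 0.62 at 4 h and 1.45 at 20 h, beside the same −0.03 and −0.00. None of the 12 was called between NF 20 h and NF 4 h by the edgeR test, which called 0.0498% of all tested genes. An unadjusted p under 0.05 was found for 5 of the 12, beside 10.7% of all tested genes. Of these 5, ENOD11 (log2 fold change 3.198, SE 0.46), NSP2 (1.28, SE 0.15), NIN (0.72, SE 0.14) and ERN1 (0.61, SE 0.12) were higher at 20 h. NSP1 was lower (−0.43, SE 0.16). For each of the 5, the NF 20 h libraries did not overlap the NF 4 h libraries.

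The genes with the profiles most like LYK10 and PUB1 were found by the root mean square difference of log2(CPM + 0.5) over the 5 libraries, after each profile was centred on its mean, among 22090 genes. For LYK10 they were Medtr8g040940, a hypothetical protein (difference 0.217), Medtr5g025850, annotated as a leucine-rich repeat receptor-like kinase family protein (0.244), and Medtr3g078250, a leucine-rich repeat receptor-like kinase (0.326). Medtr8g040940 had 1.01 CPM in the control, 64.8 and 40.4 CPM at 4 h and 97.0 and 79.6 CPM at 20 h. Within a difference of 0.5 there were 14 genes.

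For PUB1 the nearest were Medtr1g102190, a Pti1-like kinase (0.0727), Medtr8g074530, a DUF241 domain protein (0.0748), and Medtr4g094220, a UDP-glucosyltransferase family protein (0.083). Medtr1g102190 had 21.2 CPM in the control, 105 and 78.4 CPM at 4 h and 79.7 and 71.4 CPM at 20 h. Within a difference of 0.5 there were 485 genes, as against 14 for LYK10. The limit is the same for both, although their log2 fold changes differ (1.95 and 1.66 for PUB1, 6.31 and 6.72 for LYK10). These counts therefore do not compare how common the profiles are. Likeness over 5 libraries that share 1 control is a description and has no test.

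**Figure D5:**
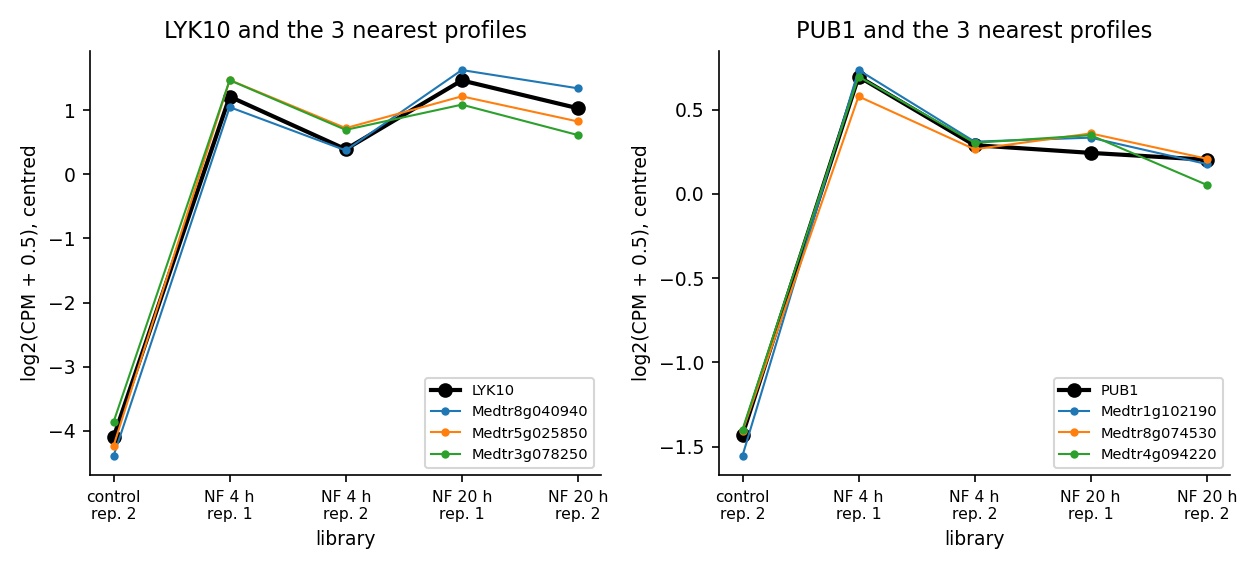
Profiles of LYK10 (left) and PUB1 (right) with the 3 nearest genes of each, as log2(CPM + 0.5) centred on the mean of each gene, in the 5 libraries. Lines join libraries only to show the profile. The nearest genes differ from LYK10 by 0.217 to 0.326 and from PUB1 by 0.0727 to 0.083 (root mean square).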

How the data were processed

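RNA was measured in 5 libraries, 1 of the control (replicate 2) and 2 of each NF treatment (replicates 1 and 2). The authors aligned trimmed read pairs to the Mt4.0v1 transcripts (Bowtie2 2.0 in the submitters' processing notes), removed reads with equally good hits, and deposited, without normalization, counts of pairs and counts of single reads per transcript. Transcript lengths are in the same files. Sources differ on whether the library kit kept strand, so antisense reads could not be told apart. The RefSeq table shares no identifier with the files and was not used.

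Here pair counts were used. CPM is the count per 1000000 counted pairs of the library, and FPKM is CPM per kilobase of transcript. The test was the quasi-likelihood test of edgeR 4.0.16 (R 4.3.3) with library-size normalization and its filter by group, in 1 fit of all libraries with 2 residual degrees of freedom, which come from the NF replicates alone. Adjusted p is by Benjamini-Hochberg over all tested genes, and a gene is called at an adjusted p under 0.05. The SE is the absolute log2 fold change divided by the square root of the quasi-likelihood F. Exact Poisson intervals (95%) and the floor of 3 counts cover counting error only. Named genes are the 8 members, the genes called and those with the highest and lowest fold change in each list, and the 3 most similar profiles of each called member. LYR6 and Medtr5g086090 were named after seeing the data. Members and lists were chosen with earlier results of these data known. Alternatives were TMM factors, DESeq2 1.42.0 (size factors and Wald test), the edgeR exact test, other filters, a replicate block, only the groups compared, each NF library left out, and a limit of 0.01. Single-read counts were added after seeing the data. The fit was tested on simulated data that held no difference between replicates shared by the treatments, so the fit was not tested under such a difference. Tables and plots used Python 3.11.15, pandas 2.3.3, scipy 1.17.1 and matplotlib 3.10.9.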

Additional observations from a re-analysis of the deposited data

How the results depend on the processing

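LYK10 and PUB1 were called at 4 h and at 20 h under each alternative except a limit of 0.01. That limit was set on the main edgeR quasi-likelihood fit only, which then called 0 genes of any kind in the 3 comparisons. The same fit had 2051 genes at an unadjusted p under 0.05 in NF 4 h against control and 2607 in NF 20 h against control. In NF 20 h against NF 4 h it had 2356. Over the alternatives, the log2 fold change of LYK10 ranged from 5.83 to 6.67 for NF 4 h and 6.39 to 6.92 for NF 20 h, and that of PUB1 from 1.73 to 2.14 and from 1.55 to 1.68. The limits are the single control library and the 2 residual degrees of freedom.

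The number of genes called depended on the processing. At 4 h it was 151 (116 higher, 35 lower), and 577 with the DESeq2 Wald test, 843 (459 higher, 384 lower) with the edgeR exact test, 440 without a filter, 87 where each library had to hold at least 10 counts and 363 with only the groups compared. At 20 h it was 325 (243 higher, 82 lower), and 906 (569 higher, 337 lower), 1289 (643 higher, 646 lower) and 717 with the first 3 of these and 618 with only the groups compared. For NF 20 h against NF 4 h it was 11, and 718, 909, 308 and 0 with the first 4 of these, and 1 with single-read counts, an alternative chosen after seeing the data.

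With 1 library left out, where a lone library is assumed to vary like the other groups, the counts ranged from 210 to 366 for NF 4 h and 350 to 639 for NF 20 h against control. For NF 20 h against NF 4 h they were 108 without NF 4 h replicate 1, 35 without NF 4 h replicate 2, 1 without NF 20 h replicate 1 and 0 without NF 20 h replicate 2. At 4 h, the count was 311 without NF 4 h replicate 2, 334 without NF 20 h replicate 1 and 366 without NF 20 h replicate 2. At 20 h it was 639 without NF 4 h replicate 1 and 624 without NF 4 h replicate 2. For 6 values that had not passed the test, the log2 fold change spanned 0 when a library of the groups compared was left out. Against the control at 4 h these were NFP (−0.22 without NF 4 h replicate 1 and 0.049 without NF 4 h replicate 2), LYR3 (−0.011 and 0.035) and LYK9 (−0.016 and 0.14), and at 20 h LYK3 (−0.38 without NF 20 h replicate 1 and 0.096 without NF 20 h replicate 2). In NF 20 h against NF 4 h they were LYK3 (−0.12 and 0.35) without the same NF 20 h libraries, and DMI2 (0.11 without NF 4 h replicate 1, −0.14 without NF 4 h replicate 2, −0.17 without NF 20 h replicate 1 and 0.12 without NF 20 h replicate 2). The cause was not tested.

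The labels do not say whether the replicate number pairs the libraries across treatments. The differences between replicates in NF 4 h and NF 20 h had a correlation of 0.615 across 17061 genes, which are not independent replicates. With the replicate block, which leaves 1 residual degree of freedom, 1650 (947 higher, 703 lower), 2706 and 1952 genes were called in the 3 comparisons, LYK10 and PUB1 among them against the control. In this fit, the log2 fold changes against the control at 4 h and 20 h were 0.29 and 0.27 for DMI2. They were −0.45 and −0.33 for LYK3 and −0.21 and 0.27 for NFP. NFP was then called between NF 20 h and NF 4 h (1 of 7 genes, log2 fold change 0.49, adjusted p = 0.00815), and LYR3 (−0.17) and LYK9 (−0.0032) changed sign at 4 h without passing the test.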
